A study of Caenorhabditis elegans with 18 samples.

Results

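The genes described here encode the nuclear hormone receptors of Caenorhabditis elegans that carry an nhr- name. They were taken as all rows of the count table named nhr- followed by a number and classed as protein-coding, without nhr-23, nhr-25 and nhr-85, which belong to the molting clock. This gave 266 genes of 46934 rows in the table, and of 19995 rows classed as protein-coding. The rule used names and no measured value, but it was set with earlier results of these data known.

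The study profiled RNA of whole worms with changes in alg-1, an Argonaute gene of the microRNA pathway. The labels give 18 libraries in 6 genotypes, 3 of each, namely alg-1(ma447,F180del), alg-1(ma443, G199S), alg-1(zen25, V254I), alg-1(zen18,H751L), the null mutant alg-1(tm492, 0) and the wild type N2. All were synchronised as L1 larvae, fed for 45 hours at 20 °C and depleted of ribosomal RNA. The count table heads its mutant columns with strain names, and the labels pair no strain name with an allele. For this reason the 15 columns of mutants were not used here. The values come from the 3 libraries of the wild type, named A, B and C by their column letters, and no genotypes were compared. No label says whether these libraries came from separate cultures, so their spread may be technical.

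Nuclear hormone receptors are transcription factors with a zinc-finger DNA-binding domain and, in most of them, a pocket for a lipophilic ligand such as a steroid or a fatty acid. Nematodes have far more of them than insects or vertebrates, and most of the additional genes are thought to descend from an ancestor of the HNF4 type. In the worm, receptors with known roles tie diet to fat and amino acid metabolism in the intestine, respond to toxins and pathogens, and steer larval development and the molts. For most members no ligand is known.

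Library A held 6223521 reads on genes, B had 5768308 and C had 5062173. Levels are given as CPM, the reads of a gene per 1e+06 reads of its library. The limit set by a count of 0 was 0.482 CPM for A, 0.520 CPM for B and 0.593 CPM for C, and covers counting error only. Marker genes listed for the main tissues were all measured. This was read at 1 CPM, a level that 63.7% of all protein-coding genes reached, and proportions of tissues were not assessed. All 12 intestinal, 12 epidermal and molting, 12 germline, 12 sperm, 10 oocyte, 6 yolk, 10 neuronal and 8 muscle markers stood at or above 1 CPM. alg-1 itself had 1382, 1236 and 1300 reads in libraries A, B and C.

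Most receptor genes were present at low levels. Together the 266 genes took 0.172% of the reads of library A, 0.171% of B and 0.185% of C. Of them, 147 had a mean of at least 1 CPM, which is 55.3% of the receptor genes, beside 63.7% of all protein-coding genes. At 10 CPM and above the shares were 14.7% of receptor genes (39 genes) and 37.3% of protein-coding genes, and at 50 CPM and above 2.26% (6 genes) and 14.5%. No read was found in any library for 44 receptor genes, or 16.5%, beside 15.9% of protein-coding genes. The receptors were thus sparse at the top of the range, while their share without reads was close to that of protein-coding genes at large. The median level was 1.73 CPM over the 266 receptor genes and 3.92 CPM over protein-coding genes. Per kilobase of annotated exon the medians were 1.13 and 3.35 CPM per kilobase of exon (RPKM), so the receptors were also lower per kilobase. No test of these differences was run.

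**Figure D1:**
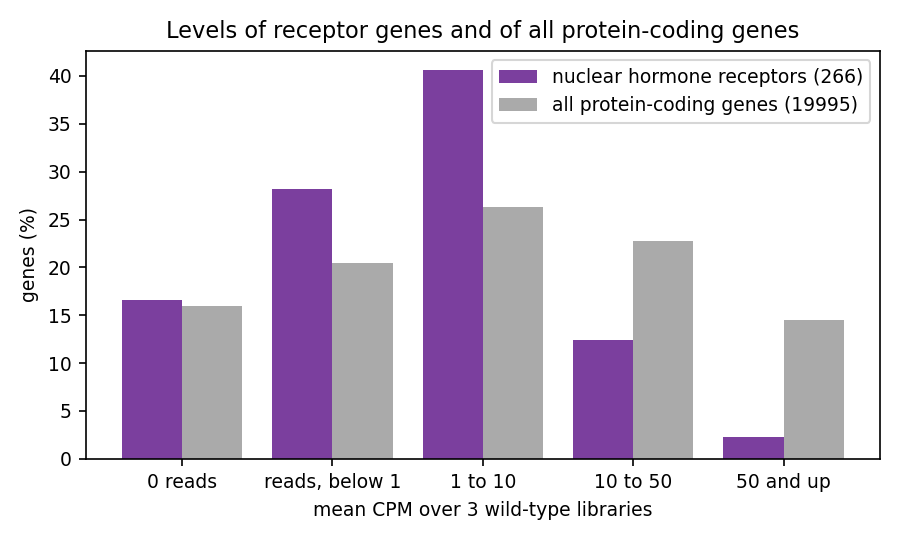
Share of genes (vertical axis, %) in each class of mean level over the 3 wild-type libraries (horizontal axis, CPM), for the 266 nuclear hormone receptor genes and for all 19995 protein-coding genes. The receptors are the larger share between 1 and 10 CPM (40.6% of receptors, 26.3% of protein-coding genes) and the smaller share at 50 CPM and above (2.26% and 14.5%).

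A few genes gave much of the receptor reads. The 10 genes with the most reads held 43.7% of all receptor reads, and the 39 genes at or above 10 CPM held 74.02%. nhr-97 (WBGene00003687) alone gave 10.2%, with 1012, 1055 and 973 reads in libraries A, B and C.

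The ranking that follows compares levels of different genes per kilobase of exon. On that scale nhr-114 (WBGene00003704), which is needed for fertility on diets poor in vitamin B12, stood highest. It had 73.6, 79.1 and 87.0 RPKM in libraries A, B and C, a mean of 79.9 ± 6.73 RPKM (SD, n = 3, as for all errors below). Its lowest library lay above the highest library of every other receptor gene. nhr-97 followed at 38.4 ± 3.24 RPKM. nhr-68, which activates the genes of the propionate shunt together with nhr-10, was at 35.9 ± 2.42 RPKM. nhr-49, a receptor of the HNF4 type that governs fatty acid desaturation and oxidation, was at 33.2 ± 3.48 RPKM. nhr-88 stood at 30.1 ± 2.69 RPKM, and nhr-41, the homolog of vertebrate TR2 and TR4, at 29.8 ± 3.91 RPKM. From nhr-97 down to nhr-41, the libraries of each gene overlapped with those of the next, so neighbours among these 5 genes did not differ beyond their spread. nhr-86, which takes part in the response to pathogenic bacteria, was at 23.5 ± 0.473 RPKM and had no overlap with either neighbour in the order. nhr-1 was the eighth at 19.2 ± 2.58 RPKM and overlapped with nhr-46 (19.1 ± 0.903 RPKM), which in turn overlapped with nhr-43 (19.0 ± 0.674 RPKM).

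**Figure D2:**
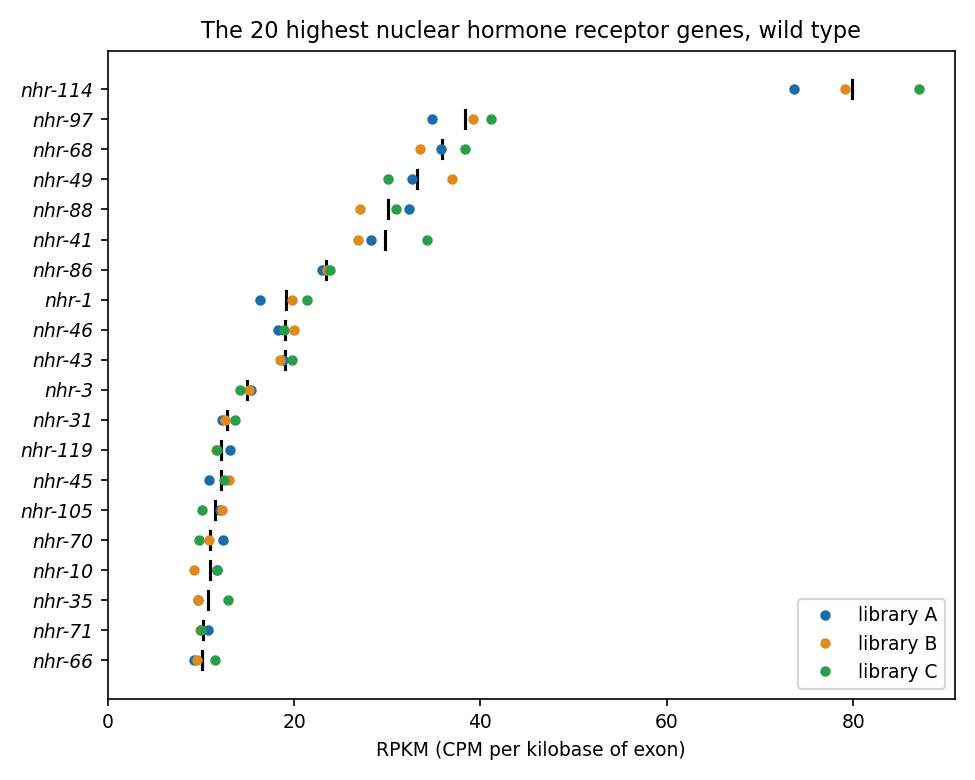
Level (horizontal axis, RPKM, that is CPM per kilobase of exon) of the 20 nuclear hormone receptor genes with the highest mean, in the wild-type libraries A, B and C (points), with the mean over the 3 libraries as a black line. nhr-114 stands apart at a mean of 79.9. The next 5 genes have means between 29.8 and 38.4, and neighbours in this order overlap in their libraries. Genes further apart need not, as the lowest library of nhr-97 (34.8) lies above the highest of nhr-88 (32.3).

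Receptors listed for a role in lipid and energy metabolism were all measured. All 13 genes of this list had at least 1 CPM, and 10 of them at least 10 CPM, with a median of 15.3 CPM (8.84 RPKM). Of all protein-coding genes, 63.7% and 37.3% reached these levels. This list and those below were chosen with earlier results of these data known, so their counts describe only the genes listed. nhr-49 had 69.6, 78.9 and 64.2 CPM in libraries A, B and C. Its partners were lower per kilobase. nhr-66, which acts with nhr-49 on sphingolipid genes, stood at 10.1 ± 1.23 RPKM, nhr-80, which acts with nhr-49 on fatty acid desaturase genes, at 6.97 ± 1.5 RPKM, and nhr-13 at 5.38 ± 1.18 RPKM. nhr-49 was thus above each of these partners in every library. In the propionate shunt pair, nhr-68 exceeded nhr-10 (10.9 ± 1.41 RPKM) in every library as well. nhr-46 had a level of 46.7 ± 2.21 CPM. nhr-76, which controls lipid use in the intestine, had 12.7 ± 1.92 CPM, nhr-69 11.9 ± 1.81 CPM and nhr-79 5.78 ± 0.739 CPM. The lowest member was nhr-62, which is known for its part in longevity under dietary restriction, with 11, 7 and 7 reads, or 0.876 ± 0.171 RPKM.

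Receptors linked to toxins, hypoxia or pathogens covered a wide range. All 8 had at least 1 CPM and 4 at least 10 CPM, and the median was 7.43 CPM (4.08 RPKM). nhr-86 was the highest, at 32.5, 33.3 and 33.8 CPM in A, B and C. It varied little between libraries. nhr-45 stood at 24.8 ± 2.34 CPM, nhr-8, a relative of daf-12 that acts in cholesterol and xenobiotic handling, at 15.3 ± 4.22 CPM, and nhr-28 at 12.04 ± 1.27 CPM. nhr-57, a target of the hypoxia factor HIF-1, was at 2.83 ± 0.778 CPM. nhr-176, which drives metabolism of the drug thiabendazole, was at 2.31 ± 0.487 CPM, nhr-102 at 2.19 ± 0.520 CPM and nhr-112 at 1.19 ± 0.336 CPM. Counts of the last 3 genes ranged from 5 to 17 reads per library, so their levels rest on few reads.

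Conserved receptors, most of them with a known homolog outside nematodes, were largely measured. Of the 14 genes on this list, 11 had at least 1 CPM and 8 at least 10 CPM, with a median of 13.6 CPM (8.47 RPKM). nhr-49, described above, was the highest, and nhr-41 came next with 61.4, 58.2 and 74.3 CPM in libraries A, B and C. Among genes close to HNF4, nhr-31, which acts in the excretory cell, stood at 12.9 ± 0.752 RPKM, nhr-35 at 10.8 ± 1.84 RPKM, nhr-69 at 8.84 ± 1.35 RPKM and nhr-64 at 4.87 ± 1.46 RPKM. nhr-48, a relative of daf-12, was at 10.1 ± 0.929 RPKM, nhr-6, the homolog of vertebrate NR4A receptors with a role in the spermatheca, at 9.11 ± 4.03 RPKM, nhr-91, a homolog of vertebrate GCNF, at 4.86 ± 0.417 RPKM and nhr-47 at 4.07 ± 0.0583 RPKM. The remaining 3 genes had 6 reads or fewer in each library. nhr-67, the homolog of Tailless that specifies the anchor cell, had 6, 6 and 3 reads, nhr-239 had 1, 1 and 0 reads, and nhr-111 had no read, which allows up to 0.482 CPM in A, the deepest library.

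The list of receptors with roles or expression in development and the epidermis was split. Of its 17 genes, 8 had at least 1 CPM and 5 had no read in any library, and the median was 0.866 CPM (0.546 RPKM). nhr-88 had 101.6, 85.3 and 97.4 CPM, nhr-66 44.8, 46.1 and 55.7 CPM, and nhr-43 33.9, 33.5 and 35.8 CPM in A, B and C. These 3 genes were well measured in every library. nhr-6 was at 22.8 ± 10.1 CPM, nhr-40, which acts in muscle development, at 12.3 ± 1.09 CPM, nhr-91 at 9.42 ± 0.807 CPM, nhr-74 at 3.19 ± 0.584 CPM and nhr-60 at 1.14 ± 0.511 CPM. nhr-72, nhr-77, nhr-82, nhr-89 and nhr-111 had no read. nhr-2, a gene of the early embryo, had 1, 0 and 1 reads, nhr-73 had 4, 0 and 2, and nhr-81 had 1, 1 and 0. A count this low does not separate absence from expression in few cells.

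Genes that work with the receptors were also looked at. Of 9 nuclear receptor genes outside the members, 5 had at least 1 CPM. nhr-23, a driver of the molts, stood at 60.7 ± 1.37 CPM, the dafachronic acid receptor gene daf-12 at 46.3 ± 5.18 CPM, nhr-85 at 20.0 ± 1.35 CPM, sex-1 at 10.9 ± 2.01 CPM and nhr-25 at 6.34 ± 1.18 CPM. The neuronal receptors fax-1, unc-55 and odr-7 stayed below 1 CPM, and dpr-1 had no read. Of 8 genes for sterol transport and hormone synthesis, 7 had at least 1 CPM. The P450 reductase gene emb-8 was the highest at 157 ± 10.7 CPM, and daf-9, the P450 enzyme that makes dafachronic acid, was at 4.74 ± 1.33 CPM. Cofactors were far above most receptors per kilobase. mdt-15, the Mediator subunit that binds NHR-49, stood at 62.1 ± 1.11 RPKM, cbp-1 at 33.4 ± 0.813 RPKM, din-1, a corepressor of DAF-12, at 23.4 ± 1.62 RPKM, and the Groucho homolog unc-37 at 15.6 ± 0.999 RPKM. All 6 cofactors found in the table had at least 10 CPM, while 2 listed symbols, daf-21 and mdt-12, had no row under that name.

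Among 15 textbook targets of nhr-49, nhr-68 and related receptors, 13 had at least 1 CPM. The genes of propionate breakdown were the most abundant, with alh-8 at 1273 ± 56.9 RPKM, acdh-1 at 1003 ± 28.9 RPKM and hphd-1 at 770 ± 50.7 RPKM. The desaturase gene fat-6 stood at 265 ± 17.8 RPKM and fat-7 at 35.02 ± 2.28 RPKM. acs-2, an acyl-CoA synthetase gene induced on fasting, was at 54.4 ± 2.12 RPKM. fmo-2, which is induced by fasting and hypoxia, had 3, 3 and 5 reads, and lbp-8 had 3, 1 and 1. These are single-genotype levels and show no response of a target to its receptor.

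Receptor genes were spread unevenly over the chromosomes. In the WBcel235 annotation, joined by WormBase identifier for all 266 genes, 167 (62.8%) lie on chromosome V, which holds 25.0% of protein-coding genes. Levels differed along with position. At 10 CPM and above stood 5 of the 167 genes on chromosome V (2.99%) and 34 of the 99 on the other chromosomes (34.3%), beside 24.1% and 41.7% of protein-coding genes in the same places. The 5 were nhr-114, nhr-86, nhr-68, nhr-70 and nhr-55. At the lower threshold of 1 CPM the shares were closer, at 52.1% of receptor genes on chromosome V and 60.6% elsewhere. Protein-coding genes stood at 47.2% and 69.1%, so at this threshold the receptor share on chromosome V was above theirs and elsewhere below it. Chromosome V thus held 31.5% of the summed receptor CPM with 62.8% of the genes. Chromosome X had the highest median, 10.8 CPM over 22 genes, and chromosome I the lowest, 0.111 CPM over 21 genes, although nhr-49 lies there. These levels are in CPM and were not scaled to exon length. All of this describes gene positions and was not tested.

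**Figure D3:**
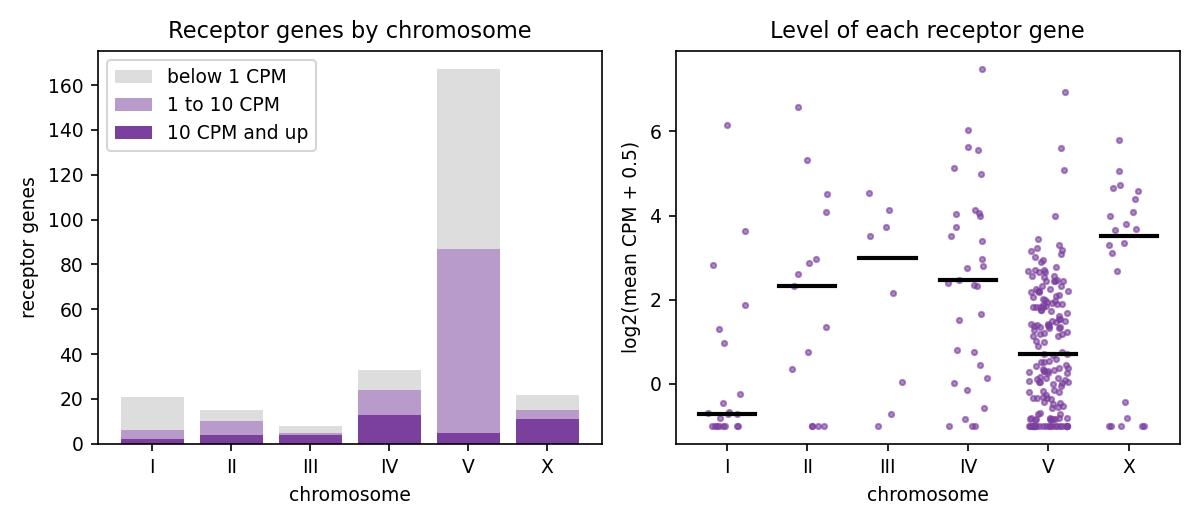
Left, number of nuclear hormone receptor genes per chromosome (vertical axis), split by mean level over the wild-type libraries. Right, level of each gene as log2(mean CPM + 0.5) per chromosome (points), with the median as a black line. Chromosome V holds 167 of 266 genes, of which 5 reach 10 CPM, and chromosome X has 11 of 22 at that level.

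Many receptor genes sit side by side. Along the order of protein-coding genes, 137 of the 266 had another member as a direct neighbour, in 44 runs, and 107 of the 137 lie on chromosome V. Of these 137 genes 3 reached 10 CPM (2.19%), while 36 of the 129 that stand alone did (27.9%). At 1 CPM and above the shares were 51.1% and 59.7%, and none of these shares was scaled to exon length. The longest run, 9 genes from nhr-185 to nhr-124 on chromosome V, stayed at or below 0.552 CPM throughout. The 7-gene run from nhr-56 to nhr-96 had 1.78 CPM or more for every gene, up to 4.90 CPM. On chromosome X the 4 neighbours nhr-26, nhr-214, nhr-272 and nhr-27 had no read at all. Neighbouring copies can be alike in sequence, and no source used here says how reads that fit several genes were counted, so levels within runs are uncertain.

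Receptor genes with more reads had longer gene models with more transcripts. CPM rises with exon length, so part of the difference in length follows from the measure. The 39 genes at or above 10 CPM had a median of 1917 exonic bases in 9 exons, and 74.4% of them had more than 1 annotated transcript. The 119 genes below 1 CPM had a median of 1165 bases in 6 exons, and 24.4% had more than 1 transcript. Ranked per kilobase instead, the 39 highest had a median of 1853 bases and 69.2% with more than 1 transcript, and the 119 lowest 1175 bases and 25.2%. Protein-coding genes showed the same order, with 44.1% against 14.2% at the same levels. Exons of 9 receptor genes (3.38%) overlapped those of other genes over more than 10% of their length, beside 7.27% of protein-coding genes. Among the 9 was nhr-101 (69.2%), with 8, 2 and 4 reads. None of these 9 reached 10 CPM, and no source used here gives the strand setting of the counting.

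The libraries differed for some receptors by more than counting noise. Spread was measured as the chi-square of a gene's counts against the library totals, and a gene was counted where it passed the 95% point, which counting noise alone would exceed in 5% of genes. Of 134 receptor genes that averaged 10 reads or more, 20 passed (14.9%), beside 18.6% of all protein-coding genes with as many reads. Of the other protein-coding genes between 1.99 and 48.2 CPM, where most of these receptors lie, 11.9% passed. The receptor share was not cut to that range. It includes nhr-97, nhr-114, nhr-88, nhr-49, nhr-41, nhr-1 and nhr-66, which lie above 48.2 CPM and all passed. The receptor count was 11 without library C. The receptor share is near both backgrounds and is no result about the family.

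nhr-6 had the largest chi-square, 24.6 per degree of freedom, followed by nhr-97 with 7.39. Also past the 95% point were nhr-41, nhr-1, nhr-114, nhr-88 and nhr-49, which like nhr-97 are among the highest genes per kilobase. For the same relative spread, chi-square is larger for genes with more reads. On the scale of log2(CPM + 0.5), nhr-97 and these genes had SDs from 0.120 (nhr-114) to 0.198 (nhr-1). All were below 0.225, the median SD over the 134 receptor genes tested. The genes described next had the largest SD at or above 10 CPM. nhr-6 had 16.4, 17.5 and 34.4 CPM in libraries A, B and C, so C alone was high. Its SD was 0.58 on the scale of log2(CPM + 0.5), and without C its 2 remaining libraries did not pass. nhr-8 showed the same order, with 12.5, 13.2 and 20.1 CPM in libraries A, B and C. nhr-55 had 8.52, 9.01 and 13.6 CPM, nhr-80 10.1, 12.7 and 15.6 CPM, and nhr-35 18.6, 18.5 and 24.7 CPM, each highest in C. nhr-69, also highest in C, had 10.3, 11.4 and 13.8 CPM and did not pass. nhr-274 was highest in A instead, with 129, 75 and 87 reads, and so was nhr-138, with 12.2, 9.19 and 8.89 CPM, which did not pass. Of the 11 conserved receptors with enough reads, 9 were highest in C. On the other lists, 7 of 12 lipid, 3 of 7 toxin and pathogen and 4 of 7 development genes were. Over all 134 receptor genes it was 61 (45.5%), and over protein-coding genes 36.3%. The lists share genes, and differences between them were not tested.

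Markers moved between the same libraries. Of the 12 epidermal and molting markers 11 were highest in C, and their summed level was 4585, 4791 and 5508 CPM in libraries A, B and C. All 6 yolk genes were highest in A, with sums of 7811, 7340 and 5602 CPM. Oocyte markers summed to 1476, 1449 and 1270 CPM, and germline markers to 1706, 1680 and 1533 CPM, and none of these 10 and 12 genes was highest in C. Intestinal markers summed to 9033, 9553 and 10268 CPM, with 8 of 12 highest in C and 0 in A. Of the neuronal markers 6 of 10 were highest in C, of the muscle markers 3 of 8, and of the sperm markers with enough reads 2 of 11. The part of these markers in the spread of the receptors was not tested. In whole worms, fewer cells of a type and less RNA per cell cannot be told apart.

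**Figure D4:**
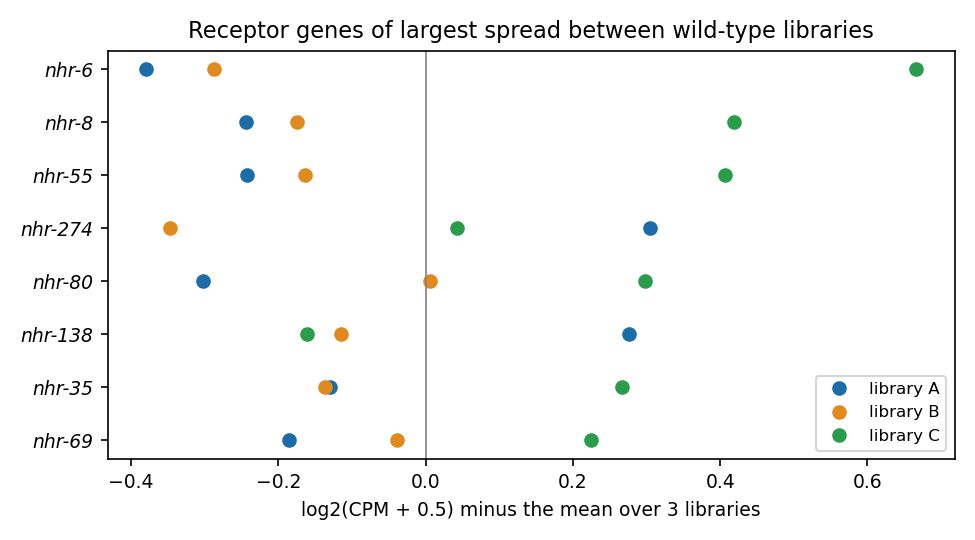
Deviation of each wild-type library from the gene's mean (horizontal axis, log2(CPM + 0.5)) for the 8 nuclear hormone receptor genes of largest spread among those at or above 10 CPM. Library C is the highest for nhr-6, nhr-8, nhr-55, nhr-80, nhr-35 and nhr-69, and library A for nhr-274 and nhr-138.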

How the data were processed

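Whole-worm RNA was depleted of ribosomal RNA and made into NEBNext Ultra II libraries for a NextSeq 500, per the labels' protocols. The deposited values are raw counts of reads. The submitters' processing notes name Bowtie2 2.3.5.1, cutadapt 1.9, Subread 1.6.2 and featureCounts, without their roles. Genome build, annotation release, strand setting and handling of reads that fit several genes: not given in the sources used here.

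The 3 columns named N2 match the wild-type label. Another 15 columns, of 5 strains, match no label and were not used. The 10 planned edgeR tests between genotypes were therefore not run.

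CPM used library totals. RPKM used the union of exons in Ensembl release 115 (WBcel235), matched by WormBase identifier. Spread was a chi-square per degree of freedom for genes that averaged 10 reads or more, with a limit of 3.00, and was tested on simulated data. edgeR 4.0.16 in R 4.3.3 gave TMM factors. Python 3.11.15, numpy 2.4.6, pandas 2.3.3 and scipy 1.17.1 were used. The floor was 3 counts per library. No molecular identifiers were used, so floors cover counting error only.

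Genes named are the 8 highest per kilobase, the 8 of largest SD of log2(CPM + 0.5) at or above 10 CPM, and the members of the role lists. Other genes named, for their position, neighbours or overlap, were chosen after their values were seen. The ranking of gene models per kilobase was added after the data were seen. The members and lists were chosen with earlier results of these data known.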

Additional observations from a re-analysis of the deposited data

Results flagged for a closer look

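Rows with an nhr- name that the table classes as pseudogenes lie outside the receptors described above. Of 14 such rows, 3 had more than 3 reads in every wild-type library, the limit that a count of 0 allows. nhr-144 had 19, 15 and 19 reads in A, B and C, a mean of 3.14 CPM. nhr-266 had 7, 14 and 12 reads, a mean of 1.97 CPM, and nhr-83 had 9, 7 and 6 reads, a mean of 1.28 CPM.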

How the results depend on the processing

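The comparisons between genotypes and their alternatives were not run. No paired analysis was possible because no mutant column matches a label and the letters of the wild-type columns are not replicate numbers. The number of receptor genes with reads was 147 at a mean of 1 CPM, 134 at a mean of 10 reads, 146 with TMM-scaled CPM and 222 with at least 1 read in any library. It ran from 147 to 150 when each library was left out. The alternatives that follow were chosen after seeing the data. Receptor genes past counting noise numbered 20, 19 with TMM library sizes, and 11 to 17 when each library was left out, with 11 without C, when 13.2% of protein-coding genes passed. The receptor share of reads was 0.176% of the library total and 0.186% of the protein-coding total, and ran from 0.172% to 0.178% with a library left out. Of 48 named receptor genes, the protein-coding total moved the mean of 4 by more than the SD between libraries, and TMM scaling moved none. With the longest transcript as length, 7 of the 8 highest genes per kilobase were shared. Genes under 10 reads rest on too few counts for an order of levels.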
